A study of Mus musculus with 6 samples.

Results

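The cells described here were fibroblasts of the small intestinal lamina propria (siLP) that carried Adamdec1 together with Vwc2 and genes like it, and they were chosen by their own UMI counts among live tdTomato+ cells sorted from Flare-TSLP mice. A UMI is the tag that marks 1 captured transcript. Barcodes with 1000 to 7500 genes, 2500 to 40000 UMIs on genes and under 10% mitochondrial UMIs were kept as cells. A kept cell was called an Adamdec1 fibroblast when it held at least 1 UMI of Adamdec1, at least 1 UMI of 3 or more of the 6 genes Vwc2, Edil3, Dkk2, Apcdd1, Kcnk2 and Pappa, and no UMI of Ackr4, Pi16, Prox1, Ptprc or Agt. Of the 76832 kept cells in the 4 small intestinal libraries, 17505 met this rule. Since measured values chose the cells, the levels of the genes in the rule and every difference in level between these cells and other cells are a description and carry no test.

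In Flare-TSLP mice, which are on a C57BL/6 background and were kept under specific pathogen-free conditions, a tdTomato cassette at the Tslp locus marks cells that express this cytokine. Lamina propria cells were freed of epithelium, digested, sorted as live tdTomato+ cells and captured in droplets for 3′ single-cell RNA sequencing, and no treatment separates the groups. The groups were the proximal jejunum (2 libraries) and the distal ileum (2 libraries), called the proximal and distal small intestine here, the cecum (1 library) and the large intestine (1 library). Barcoded hashtag antibodies were added to the cells ahead of capture. A set of 3 hashtags was used for replicate 1 of the proximal and distal libraries, the cecum and the large intestine, and a different set of 3 for replicate 2. At least 3 biological samples entered for the proximal and for the distal tissue. For pooled experiments the methods give mice of both sexes aged 8 to 12 weeks. No source used here pairs a hashtag with a mouse. The library was therefore the replicate, and p-values measured only the spread between 2 libraries for each region, which may be technical.

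Fibroblasts of the small intestine shape the epithelium through secreted ligands and their inhibitors. Subepithelial fibroblasts, including telocytes, lie against the villus and crypt epithelium and secrete BMPs and noncanonical WNTs, whereas trophocytes sit around the crypt base and secrete Grem1, which binds and blocks BMPs, and R-spondins, which strengthen WNT signaling in stem cells. ADAMDEC1 is a secreted metalloprotease of the ADAM family whose transcript is a known marker of lamina propria fibroblasts. Among the other genes of the rule, VWC2 is a secreted BMP antagonist, DKK2 and APCDD1 act on WNT receptors, EDIL3 is an integrin-binding matrix protein, KCNK2 is a background potassium channel and PAPPA is a protease that cleaves IGF-binding proteins.

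The 4 small intestinal libraries held 168250954 to 206827504 UMIs on genes and 17282 to 21299 kept cells each, and the median Adamdec1 fibroblast held 7409 to 9461 UMIs and 3049.5 to 3621 genes in a library. Between any pair of the 6 libraries 38 to 118 barcodes of kept cells were shared, and at most 10 of these were Adamdec1 fibroblasts in both. Scrublet marked 2.32 to 4.55% of the Adamdec1 fibroblasts as doublets, compared with 7.30 to 11.5% of all kept cells, and these were left in. More than 1 hashtag was called in 4.11 to 11.6% of them. Gates on other genes gave the classes used for comparison. These were 18952 Ackr4 cells (Ackr4 with Dcn and with Cd34 or Grem1) and 3870 Agt cells (Agt with at least 2 of Wnt4, Procr, Nrg1, Foxl1, Frmd5, Bmp5 and Wnt5a). A further 582 cells were Pi16 cells (Pi16 with Dcn and with Dpp4, Cd55 or Ly6c1) and 18192 were lymphatic cells (Prox1 with at least 2 of Lyve1, Mmrn1, Flt4 and Reln). Ackr4 is a marker of trophocytes, Agt of subepithelial fibroblasts, Pi16 of universal fibroblasts and Prox1 of LECs, and the levels of gate genes in a class they chose are likewise a description. The composition of the sort differed between libraries, since lymphatic cells made up 17.5% and 35.1% of kept cells in proximal replicates 1 and 2 and 4.85% and 38.6% in distal replicates 1 and 2. Free RNA was read from barcodes with at most 100 UMIs, in which Adamdec1 stood at 1792 and 2454 against 3599 and 3709 CPM (proximal against distal). CPM here are UMIs per 1000000 UMIs of all cells of a class summed within a library.

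The label of a lamina propria fibroblast was set beside marker lists. All 8 fibroblast markers, among them the collagens and Pdgfra, were present, with a summed level of 23499.5 to 25131 CPM over the 4 libraries. Markers of other cell types summed to less, at 41.1 to 167 CPM for lymphatic, 39.8 to 98.8 CPM for blood endothelial, up to 203 CPM for immune, 8.26 to 24.5 CPM for epithelial and 4.88 to 10.5 CPM for glial lists. Smooth muscle markers summed to 252 to 632 CPM, highest in distal replicate 2, compared with 1440 to 2789 CPM in Agt cells. Of the lists for other fibroblasts, trophocyte markers summed to 1590 to 1999 CPM, universal fibroblast markers to 774 to 1090 CPM and subepithelial fibroblast markers to 279.5 to 440.5 CPM. The rule excluded cells with a UMI of Ackr4, Pi16, Agt, Prox1 or Ptprc, which belong to the trophocyte, universal, subepithelial, lymphatic and immune lists, so these sums were partly set by the rule and are given as levels only. Pericyte markers summed to 937 to 1593 CPM, most of it from Rgs5, a regulator of G protein signaling, at 1115 CPM on average. The proliferation list summed to 2.85 to 9.14 CPM, compared with 46.4 to 186 CPM in Agt cells. An Adamdec1 UMI alone did not mark the cell type, because it was found in 43.4 to 73.5% of lymphatic cells at median depths of 6319 to 7423.5 UMIs, in 69.0 to 93.2% of Ackr4 cells and in 99.5 to 100% of Agt cells.

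The genes of the rule varied among themselves and along the small intestine. Adamdec1 stood at 5068 and 5859 CPM in the proximal and 7183 and 8247 CPM in the distal libraries, with a mean of 6589 ± 1408 CPM (SD, n = 4). The means were 2182.2 CPM in Ackr4 cells and 5781 CPM in Agt cells. Dkk2 stood at 682 and 599 CPM in the proximal and 879 and 1005 CPM in the distal libraries, Edil3 at 198 and 251 against 399 and 568 CPM and Kcnk2 at 305 and 362 against 536 and 637 CPM, so each of these was higher in both distal than in both proximal libraries. Vwc2 ran the other way, at 410.4 and 394 against 229 and 267 CPM, and so did Apcdd1, at 328 and 303 against 209.5 and 223 CPM. Pappa, at 611 and 179 against 1028 and 352 CPM, separated replicate 1 from replicate 2 rather than the regions. Compared with Ackr4 cells, the means in Adamdec1 fibroblasts were 325 against 122 CPM for Vwc2 and 791 against 635 CPM for Dkk2, and Agt cells held 69.5 CPM of Vwc2 and 80.5 CPM of Dkk2. Fibroblasts with exactly 3 of the 6 genes, just inside the rule, were 763, 878, 1010 and 840 cells in proximal replicates 1 and 2 and distal replicates 1 and 2, and those with exactly 2, just outside it, were 585, 692, 508 and 564. Just inside, Dcn, a proteoglycan made by most fibroblasts, stood at 8841 and 8786 against 9786 and 6554 CPM (proximal against distal). Fgfr2, which is high in Agt cells, stood at 495 and 535 against 377 and 652 CPM. Just outside, Dcn stood at 5815 and 6464 against 8591 and 4220 CPM and Fgfr2 at 1098 and 968 against 718 and 1145 CPM.

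Adamdec1 fibroblasts made up 19.4% and 17.1% of kept cells in proximal replicates 1 and 2 and 31.9% and 21.1% in distal replicates 1 and 2. The mean share was 18.3% ± 1.66 (SD, n = 2) proximally and 26.5% ± 7.67 (SD, n = 2) distally, and both distal libraries lay above both proximal libraries. The difference of 8.21 percentage points gave p = 0.333 in an exact two-sided permutation test, which is the smallest p that 2 against 2 libraries allow. The share counts cells that met the rule, and the rule's own genes differed between the regions. Adamdec1, Dkk2, Edil3 and Kcnk2 were higher in both distal libraries, and Vwc2 and Apcdd1 were lower. Their levels alter how many cells pass, and their part in the shares was not tested. The distal replicates lay further apart than the regions did, and the difference was 2.79 points without distal replicate 1 and 13.6 points without distal replicate 2. It was 18.6 points with no gene excluded and 12.7 points with cells thinned to 2500 UMIs. The shares were taken of all sorted cells, lymphatic cells included. Over kept cells without a Prox1 UMI, a base chosen after the data had been seen, they were 24.4% and 27.9% proximally and 33.9% and 36.8% distally. Within a library the 3 hashtags gave shares of 16.6 to 26.2% and 13.7 to 19.2% in proximal replicates 1 and 2 and of 32.8 to 38.5% and 17.8 to 23.4% in distal replicates 1 and 2, among cells with a called hashtag. The exclusion of 5 genes set the size of the class, since 6894, 6214, 14473 and 8886 cells met the other conditions, of which 2951, 2058, 7016 and 2795 carried Ackr4. Applied to the cecum and the large intestine, which the rule does not cover, the same gate took 4.68% and 6.23% of cells, and 563 of these 653 and 609 of these 732 cells had exactly 3 of the 6 genes.

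**Figure D1:**
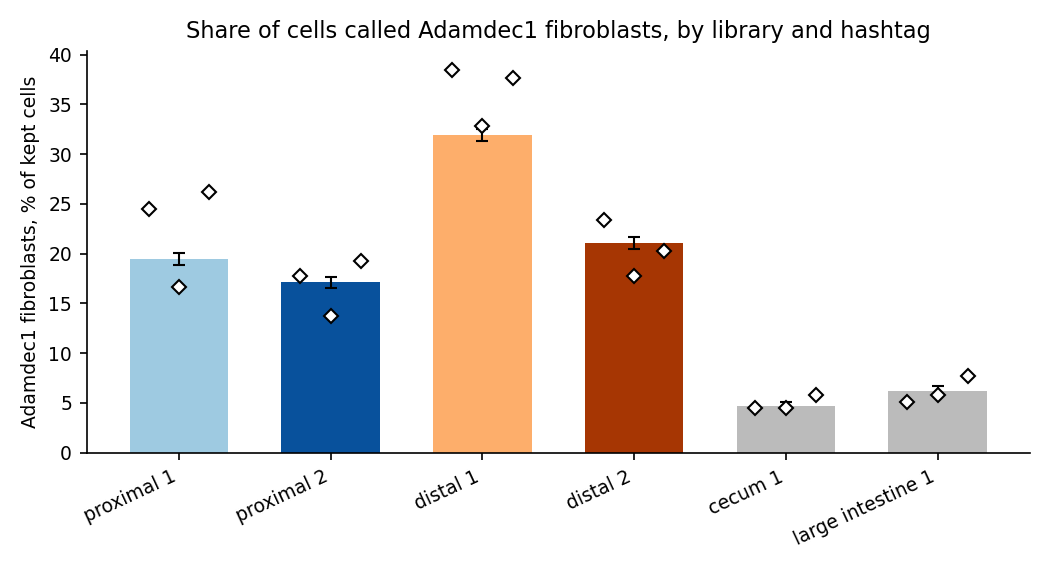
Share of kept cells that were Adamdec1 fibroblasts, in percent, for each library (bars from 0, with the exact 95% binomial interval for counting error) and for the cells of each hashtag (diamonds). The 4 small intestinal bars sit between 17.1 and 31.9%, whereas the cecum and the large intestine sit at 4.68 and 6.23%.

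The niche factors that the study follows in trophocytes and subepithelial fibroblasts were then read in Adamdec1 fibroblasts. Among factors of crypt support, Grem1, a secreted BMP antagonist, stood at 239.6 and 335 CPM in the proximal and 249 and 312 CPM in the distal libraries, on average 284 ± 47.1 CPM (SD, n = 4). Its means were 1145 CPM in Ackr4 cells, whose gate used it, and 41.4 CPM in Agt cells. Rspo3, an R-spondin, stood at 128 and 148 against 65.6 and 82.6 CPM and was thus higher in both proximal libraries. Its means were 145 CPM in Ackr4 cells and 65.6 CPM in Agt cells. Its relative Rspo2 stood at 58.6 and 112 against 43.6 and 107 CPM and followed the replicates rather than the regions. Wnt2b, a canonical WNT ligand, had means of 35.9, 34.7 and 28.3 CPM in Adamdec1 fibroblasts, Ackr4 cells and Agt cells. The noncanonical ligands Wnt4 and Wnt5a stood at 10.6 and 18.7 CPM in Adamdec1 fibroblasts and at 285 and 75.4 CPM in Agt cells, whose gate used both genes.

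BMP ligands and secreted WNT inhibitors were present in the same cells. Bmp4 stood at 298 ± 34.2 CPM (SD, n = 4), compared with 215 CPM in Ackr4 cells and 366 CPM in Agt cells. Bmp5 stood at 258 ± 70.6 CPM, compared with 88.4 and 465 CPM, the last in cells whose gate used it. Bmp2 averaged 138 CPM and was at least 2-fold above Agt cells (51.6 CPM) in each library. Bmp7, which marks villus tip telocytes, was near absent, at 1.64 CPM. Of 11 secreted WNT inhibitors 5 reached 10 CPM in Adamdec1 fibroblasts or Ackr4 cells. Sfrp1, a secreted WNT antagonist, stood at 2901 ± 349.9 CPM (SD, n = 4), compared with 2136 CPM in Ackr4 cells and 1152 CPM in Agt cells. Frzb, of the same family, was the only gene of the 3 assessed in that list to be at least 2-fold above Ackr4 cells in each library, at 39.3 against 10.6 CPM. Over all genes 0.253% were that far above.

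Surface markers differed in how far they set Adamdec1 fibroblasts apart. Cd34, which marks trophocytes, averaged 397 ± 21.3 CPM (SD, n = 4) in Adamdec1 fibroblasts, 400.2 CPM in Ackr4 cells, whose gate used it, and 57.4 CPM in Agt cells. Pdgfra, the fibroblast receptor for PDGF, averaged 464 ± 32.0 CPM, compared with 566 and 378 CPM, and Pdpn averaged 205 CPM, compared with 222 and 174 CPM. Procr, which encodes CD201, was low at 6.42 CPM, compared with 38.2 CPM in Agt cells, whose gate used it. Cd81, a tetraspanin, averaged 16.2 CPM, compared with 214 CPM in Ackr4 cells and 152 CPM in free RNA. Of the gut hormone receptors, Glp2r averaged 41.2 ± 7.46 CPM (SD, n = 4). It stood at 42.6 CPM in Ackr4 cells, 42.5 CPM in lymphatic cells and 67.3 CPM in free RNA. The part of free RNA in the level of the cells was not tested, so it is given as a level only. Glp1r stood at 0.0724 CPM.

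The transcripts of the sorted locus itself were rare in Adamdec1 fibroblasts. Tslp was found in 0.952% and 0.228% of them in proximal replicates 1 and 2 and in 1.16% and 0.560% in distal replicates 1 and 2, from 34, 8, 83 and 26 UMIs. In lymphatic cells Tslp was found in 1.42%, 0.843%, 1.07% and 1.15%, and in Ackr4 cells in 2.01%, 1.33%, 2.78% and 1.87%. tdTomato was found in 1.49%, 0.391%, 2.12% and 1.33% of Adamdec1 fibroblasts and in 3.72%, 3.14%, 6.21% and 3.89% of Ackr4 cells. After each cell was thinned to 2500 UMIs, tdTomato was left in 0.476%, 0.163%, 0.809% and 0.467% of Adamdec1 fibroblasts and in 1.04%, 0.818%, 1.96% and 1.44% of Ackr4 cells. Free RNA held tdTomato at 3.91 CPM on average, compared with 1.63 CPM in Adamdec1 fibroblasts and 4.74 CPM in Ackr4 cells, so these shares are not read as expression or as a difference between the classes. It held Tslp at 1.13 CPM, compared with 0.906 CPM in Adamdec1 fibroblasts. The part of free RNA in these few Tslp UMIs was not tested, and they are not read as a level of expression.

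Compared with Ackr4 cells, more genes were lower than higher in Adamdec1 fibroblasts. Of 9469 genes at 10 CPM or more in either class, 24 were at least 2-fold higher in Adamdec1 fibroblasts in each of the 4 libraries (0.253% of genes) and 126 were at least 2-fold lower (1.33% of genes), after adding 5 CPM to both levels. These counts, and those against Agt and Pi16 cells below, include genes of the gates, Adamdec1 among the 24. With 20 CPM added the counts were 10 and 66, and the 24 became 47 with 1 CPM added, 42 after subtraction of free RNA and 39 without distal replicate 1. The genes higher in Adamdec1 fibroblasts included Igfbp5, an IGF-binding protein, at 889.6 against 271 CPM (means over 4 libraries), and Fgf10, an epithelial growth factor, at 89.9 against 30.6 CPM. Matrix and basement membrane genes among them were Hmcn1, encoding hemicentin, at 1030.3 against 384 CPM, Col6a5 at 253 against 90.9 CPM and Lama1, a laminin chain, at 76.2 against 26.2 CPM. Also among them were Myocd, a coactivator of smooth muscle genes, at 41.8 against 9.65 CPM, Fhl2 at 129.8 against 37.1 CPM and Pde1c, a cyclic nucleotide phosphodiesterase, at 197 against 49.98 CPM. Of 4 smooth muscle markers assessed, 0 were at least 2-fold higher in each library, but their median was 1.24 on the log2 scale beside 0.10 over all genes. In proximal replicates 1 and 2 and distal replicates 1 and 2 the smooth muscle list summed to 252, 267, 309 and 632 CPM. Its sums in Ackr4 cells were 136, 81.7, 118 and 238 CPM. Adgrl3, an adhesion receptor, stood at 625 against 197 CPM, Plxna4, a semaphorin coreceptor, at 107 against 37.6 CPM and the angiotensin receptor Agtr1b at 34.4 against 9.46 CPM. Nav2, P3h2 and Lrrc55 stood at 123 against 31.7 CPM, 36.7 against 11.8 CPM and 51.3 against 17.2 CPM.

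Among the genes lower in Adamdec1 fibroblasts than in Ackr4 cells, after Cd81, were Ogn, a small leucine-rich proteoglycan, at 75.5 against 633 CPM, and Alk, a receptor tyrosine kinase, at 11.7 against 123 CPM. Piezo2, a mechanosensitive channel, stood at 189 against 961 CPM, Prss23, a serine protease, at 175 against 935 CPM and Scara5, a ferritin receptor, at 36.3 against 178 CPM. The collagens Col8a1 and Col4a5 stood at 69.7 against 416 CPM and 7.62 against 60.1 CPM, and the cytokine Il6 at 4.57 against 43.0 CPM. The lipoprotein receptor Vldlr stood at 20.5 against 128 CPM, and the neuronal genes Adgrb3 and Brinp3 at 3.29 against 60.8 CPM and 7.19 against 90.0 CPM. Niban1, Mir99ahg and Adamtsl1 completed the leading genes, at 5.85 against 60.8 CPM, 39.9 against 225 CPM and 131 against 693 CPM.

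By the number of genes past 2-fold, the widest gap to Ackr4 cells lay in the list of immediate early and heat shock genes. Of these, 12 of 26 were at least 2-fold lower in Adamdec1 fibroblasts in each library, beside 1.33% of all genes. The list median was -1.20 on the log2 scale beside 0.10 over all genes, while that of the smooth muscle markers was 1.24. Fos, an AP-1 subunit induced rapidly by stimuli and by tissue dissociation, stood at 554 and 429.7 CPM in the proximal and 869.7 and 584 CPM in the distal libraries in Adamdec1 fibroblasts. It stood at 1816 and 2074 CPM in the proximal and 2257 and 1749 CPM in the distal libraries in Ackr4 cells. The other 11 were Fosb, Junb, Egr1, Atf3, Ier2, Ier3, Nr4a1, Btg2, Zfp36, Myc and Dnajb1. Of 21 collagens 1 was higher and 2 were lower, beside 0.253% higher and 1.33% lower over all genes, and of 23 growth factors 2 were higher (Fgf10 and Ereg) and 3 lower, Pdgfc and Ptn among them. Of 11 retinoid genes 1 was lower (Dhrs3), and of 13 Hox genes 0 were higher or lower. The complement component C3 averaged 931 against 1538 CPM, and Dcn 8993 ± 867 (SD, n = 4) against 13678 CPM in cells whose gate used it.

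**Figure D2:**
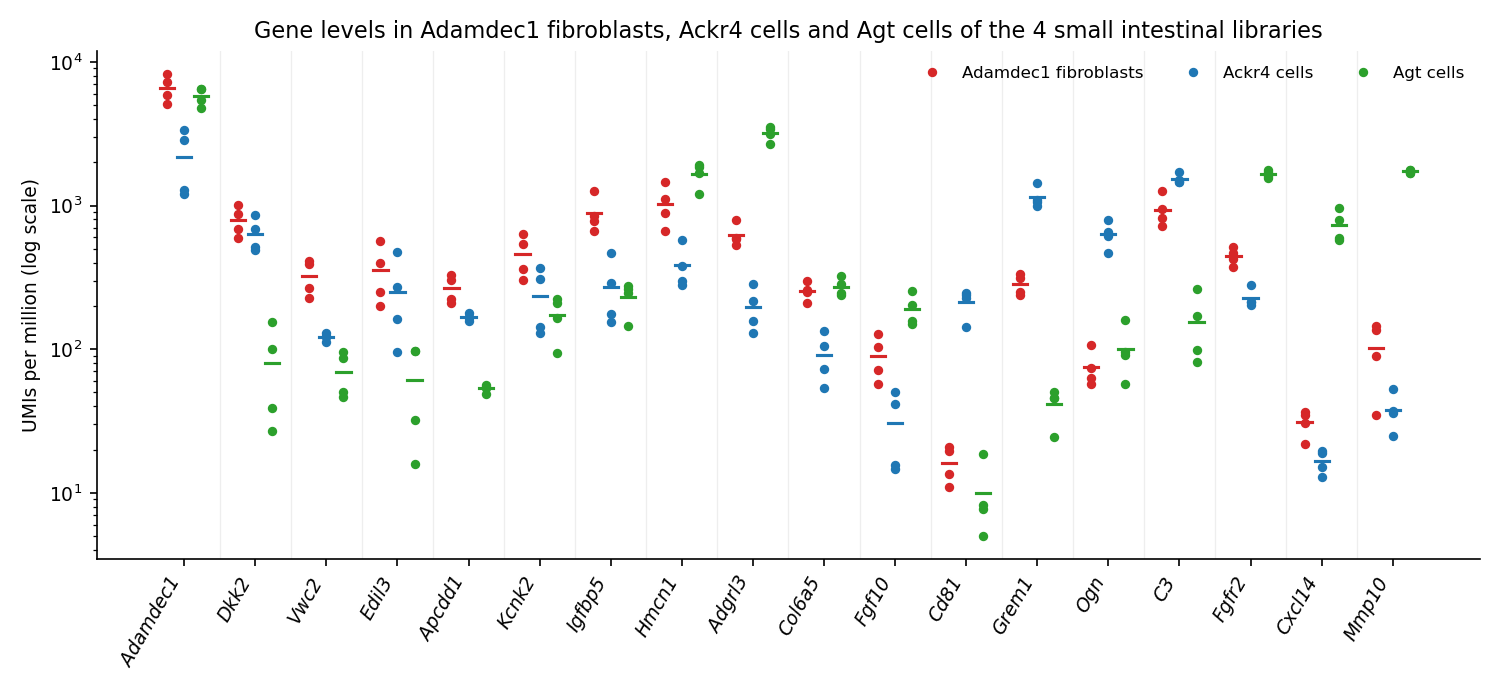
Levels of 18 genes in Adamdec1 fibroblasts, Ackr4 cells and Agt cells, in CPM on a log axis, with 1 point for each of the 4 small intestinal libraries and a line at their mean. Adgrl3, which no gate used, lay at 625 CPM on average, between 197 CPM in Ackr4 cells and 3185 CPM in Agt cells, whereas Grem1 and Adamdec1 are among the genes that gates used.

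More genes set Adamdec1 fibroblasts apart from Agt cells. Of 9877 genes, 228 were at least 2-fold higher in Adamdec1 fibroblasts in each library (2.31%) and 318 were at least 2-fold lower (3.22%), or 132 and 160 with 20 CPM added. Matrix genes were among the higher ones, with 10 of 26 listed matrix proteins higher (Eln, Fbln1, Mfap4, Mfap5, Tnxb, Dpt, Lum, Podn, Hmcn2 and Sparcl1) and 1 lower (Npnt), and with a list median of 1.02 on the log2 scale beside -0.11 over all genes. Of 23 immediate early and heat shock genes 4 were higher (Ier2, Dusp1, Klf2 and Klf4) and 1 lower (Hspb1), beside the same 2.31% and 3.22%. Their list median was 0.70 beside -0.11, whereas it was -1.20 against Ackr4 cells. By these medians Adamdec1 fibroblasts lay between the 2 classes. Fbln1, an elastic fiber protein, stood at 2217 against 349.7 CPM, Mgp, an inhibitor of calcification, at 3665 against 546 CPM and the protease Adamts19 at 847 against 139 CPM. C3 stood at 931 against 154 CPM, Serpina3n, a serine protease inhibitor, at 358 against 59.5 CPM, and Prlr, the prolactin receptor, at 42.7 against 3.84 CPM. Slit3, a guidance ligand, stood at 1424 against 264 CPM, the adhesion molecule Nlgn1 at 831 against 139 CPM, and Rspo2 at 80.4 against 10.00 CPM. The other leading genes Plac9, Gda, Nkain4, Ism1, Glrb and 9330159F19Rik stood at 1934 against 391 CPM, 191 against 28.6 CPM, 74.5 against 9.497 CPM, 55.3 against 6.46 CPM, 43.6 against 4.42 CPM and 116 against 11.6 CPM.

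What Agt cells held over Adamdec1 fibroblasts was led by Itga8, an integrin chain, at 16.7 against 428 CPM (Adamdec1 fibroblasts against Agt cells), Cxcl14, a chemokine, at 30.9 against 728 CPM, and Mmp10, a matrix metalloprotease, at 101 against 1725 CPM. Il34, a macrophage growth factor, stood at 25.4 against 344 CPM, the netrin receptor Unc5c at 36.7 against 429 CPM and the integrin ligand Npnt at 11.7 against 272 CPM. P2rx1, Tacr1 and Gna14, genes of purine, tachykinin and G protein signaling, stood at 7.67 against 202 CPM, 2.82 against 76.7 CPM and 7.75 against 122 CPM. Tmem178, Sertm1, Ank3, Pde8b and C6 stood at 11.5 against 237 CPM, 9.25 against 182 CPM, 30.4 against 406 CPM, 11.1 against 179.6 CPM and 11.2 against 151 CPM. All 6 smooth muscle markers were at least 2-fold lower in each library, Cnn1, encoding calponin, at 2.87 against 71.6 CPM. The BMP target genes Id1, Id2, Id3 and Smad6 were lower, 4 of the 10 genes in their list beside 3.22% of all genes, and the list median was -1.02 beside -0.11 over all genes. Of 11 retinoid genes 4 were lower, beside the same 3.22%, Aldh1a3, which makes retinoic acid, at 294 against 824 CPM, with Rdh10, Dhrs3 and Rarb.

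Against the 582 Pi16 cells, 11 of 9593 genes were at least 2-fold higher in Adamdec1 fibroblasts in each library (0.115%) and 101 were at least 2-fold lower (1.05%). The higher genes included Rgs5 at 1115 against 358 CPM and Col6a5 at 253 against 64.0 CPM, with Nav2, Lama1, Plxna4 and P3h2, which were also above Ackr4 cells.

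Along the small intestine, 1 gene passed the test between the proximal and distal libraries in Adamdec1 fibroblasts. On simulated counts this test recovered 55% of 2-fold changes, and 20.3% of its calls were false. Bche, which encodes butyrylcholinesterase, an enzyme that hydrolyzes choline esters, stood at 21.9 and 21.8 CPM in the proximal and 3.22 and 3.41 CPM in the distal libraries. It fell by 2.68 on the log2 scale toward the distal end (SE 0.139, adjusted p = 0.0236 by edgeR's quasi-likelihood test with Benjamini-Hochberg adjustment). The gene lies at chr3:73543141-73615748, minus strand (GRCm39). This was 1 of 16560 genes tested, or 0.00604%, and 741 genes had an unadjusted p under 0.05. The log2 ratios of CPM + 5 were -1.71 within replicate 1 and -1.67 within replicate 2. Their shared direction follows from the rule for naming a gene, which asks that the regions do not overlap. The same gene stood at 23.4 and 18.6 against 3.91 and 3.32 CPM in Ackr4 cells and 10.0 and 11.1 against 3.95 and 2.46 CPM in free RNA. Bche was among the leading genes of group 1 of the clustering given further on, which held 36.5% and 72.5% of the cells in the proximal and 3.09% and 64.5% in the distal libraries. Within group 1 it stood at 32.0 and 21.8 against 6.08 and 3.52 CPM (proximal against distal) and within group 3 at 23.3 and 28.0 against 3.27 and 0.846 CPM. Within group 2 the libraries overlapped, at 8.55 and 1.55 against 2.90 and 1.70 CPM. Replicate 2 gave group 2 only 91 proximal and 157 distal cells, too few to decide whether Bche changed there. The count depended on the libraries, since 39 genes were called without proximal replicate 1, 32 without proximal replicate 2 and 0 without either distal replicate (1128 genes at an unadjusted p under 0.05 without replicate 1, 2565 without replicate 2). Bche then had adjusted p = 0.123 without distal replicate 1 and adjusted p = 0.0811 without distal replicate 2. By other tools 141 genes were called (DESeq2) or 0 (limma-voom, with 721 genes at an unadjusted p under 0.05 and adjusted p = 0.0505 for Bche).

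A further 12 genes had an adjusted p between 0.05 and 0.1 and are named because of these values, which fail the threshold. Those with higher levels proximally were Scara5, at 77.5 and 53.0 against 8.12 and 6.56 CPM (adjusted p = 0.0563). In Ackr4 cells Scara5 was likewise higher proximally, at 337 and 242 against 74.5 and 60.1 CPM. Fgf14, which encodes an intracellular regulator of sodium channels, stood at 29.6 and 44.1 against 2.18 and 3.31 CPM (adjusted p = 0.0563) and Hoxa5 at 55.2 and 70.5 against 11.04 and 16.0 CPM (adjusted p = 0.0748). Chodl, Adam23, the orphan nuclear receptor Esrrg and the matrix protein Smoc2 followed at 11.3 and 12.3 against 1.86 and 2.80 CPM, 10.0 and 13.4 against 2.48 and 3.01 CPM, 13.5 and 11.8 against 3.84 and 3.88 CPM and 45.9 and 59.8 against 17.1 and 19.6 CPM, with adjusted p from 0.0841 to 0.0912. Scara5, Fgf14 and Chodl were also leading genes of group 5, a group with the genes of Ackr4 cells that made up 3.69% and 3.07% of Adamdec1 fibroblasts proximally and 2.49% and 1.87% distally. Without its cells Scara5 stood at 63.5 and 45.7 against 4.81 and 4.21 CPM, Fgf14 at 25.9 and 36.4 against 1.02 and 1.63 CPM and Chodl at 4.88 and 5.19 against 0.638 and 1.40 CPM. Fgf14 was a leading gene of group 1 too. It stood at 44.6 and 39.5 against 2.43 and 0.681 CPM within group 1 and at 27.6 and 33.9 against 1.75 and 2.37 CPM within group 3. Within group 2 its libraries overlapped, at 3.21 and 0 against 0.785 and 0 CPM. The 91 proximal and 157 distal cells of replicate 2 in that group are too few to decide whether Fgf14 changed there. Those with higher levels distally were Cntn4, an axonal adhesion molecule, at 0.377 and 0.123 against 9.72 and 10.9 CPM (adjusted p = 0.0563). Galnt3, which starts O-glycan chains, stood at 0.686 and 0.584 against 4.93 and 5.21 CPM (adjusted p = 0.0563) and Hoxc9 at 0.103 and 0 against 13.3 and 9.54 CPM (adjusted p = 0.0563). Cdh8, a cadherin, stood at 3.64 and 2.21 against 18.9 and 18.2 CPM (adjusted p = 0.0841) and Col4a3, a basement membrane collagen, at 14.3 and 13.2 against 32.7 and 37.3 CPM (adjusted p = 0.0764). The proximal and distal libraries did not overlap for any of the 12, which follows from how they were chosen.

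**Figure D3:**
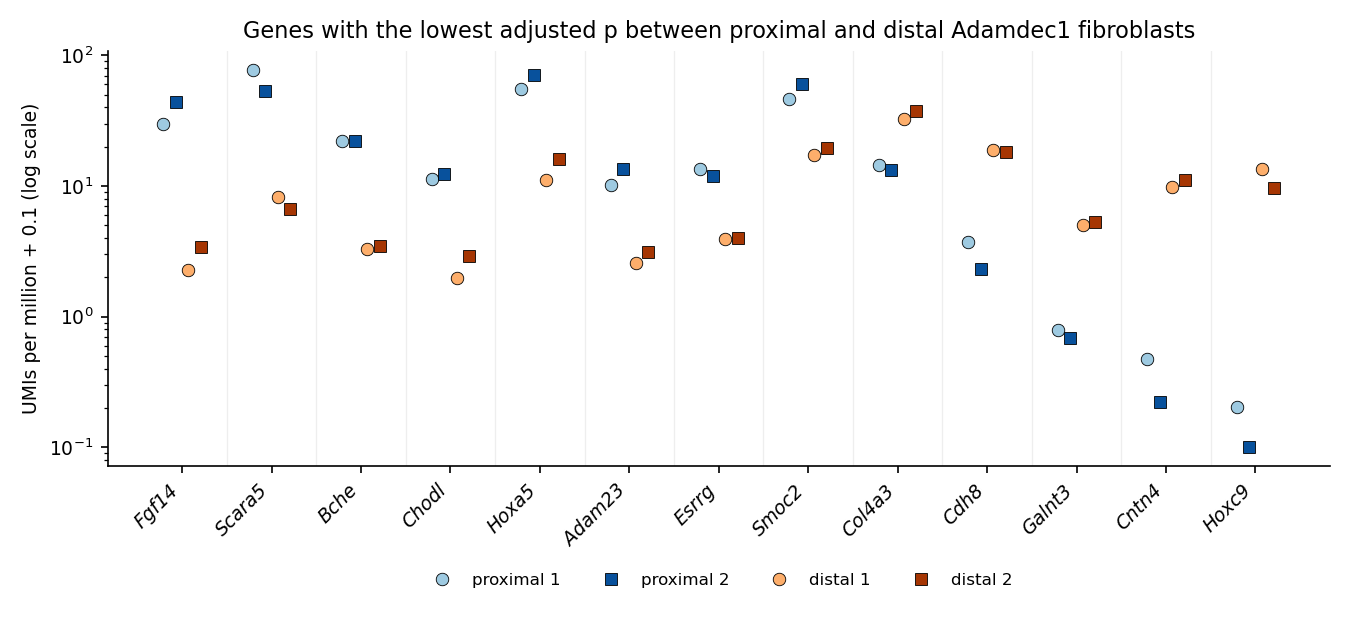
Levels in Adamdec1 fibroblasts of the 13 genes with the lowest adjusted p between the regions, in CPM + 0.1 on a log axis, with 1 point for each library. For each gene the 2 proximal and the 2 distal points lie apart, Bche at 21.8 and 21.9 against 3.22 and 3.41 CPM, and Bche alone passed the threshold.

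The Hox genes, transcription factors whose order on the chromosome follows the body axis, lay higher distally for some members and lower for others. Of 39 listed genes 22 were tested, and 0 passed by edgeR and limma-voom. By DESeq2 8 passed, beside 141 of all 16560 genes tested. By edgeR 12 of the 22 had an unadjusted p under 0.05, beside 741 of all 16560 genes. Both distal libraries were above both proximal ones for 8 genes and below for 7, which is 15 of the 22 beside 12.6% and 17.5% of all genes tested. Hoxc5, Hoxc6, Hoxc8 and Hoxc9 of the HoxC cluster on chromosome 15 were among the higher ones. Hoxc8 (chr15:102898851-102902543, plus strand) stood at 25.1 and 12.3 against 117 and 119 CPM with a log2 change of 2.69 (adjusted p = 0.133). Hoxc6 (chr15:102906689-102920315, plus strand) stood at 29.6 and 25.8 against 54.8 and 56.5 CPM with 1.05 (adjusted p = 0.130). The 3′ genes of the HoxA cluster on chromosome 6 were among the lower ones. Hoxa5 (chr6:52178734-52181567, minus strand) had a log2 change of -2.19. Hoxa4 (chr6:52166651-52168733, minus strand) stood at 8.13 and 13.0 against 1.54 and 2.45 CPM with -2.37 (adjusted p = 0.144). Hoxa3 stood at 47.2 and 61.9 against 18.8 and 31.2 CPM with -1.10 (adjusted p = 0.476) and Hoxa2 at 7.93 and 11.4 against 1.54 and 3.41 CPM with -1.95 (adjusted p = 0.369). In the HoxB cluster Hoxb5 stood at 18.5 and 32.2 against 6.32 and 13.3 CPM, whereas Hoxb2 was level at 24.7 and 25.8 against 25.03 and 23.7 CPM. Hoxc8 was higher distally in the other classes too, at 12.4 and 6.64 against 84.8 and 87.2 CPM in Ackr4 cells, 24.6 and 13.1 against 127 and 134 CPM in Agt cells and 9.67 and 5.00 against 66.8 and 63.0 CPM in free RNA.

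**Figure D4:**
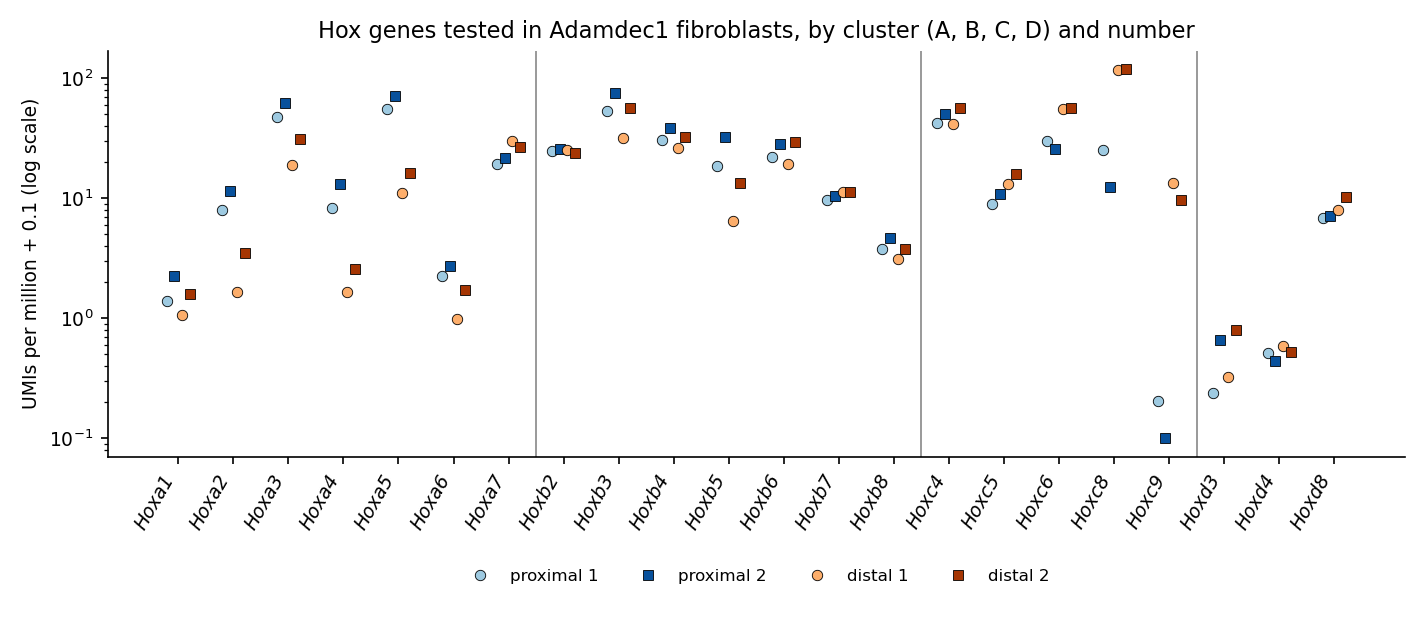
Levels in Adamdec1 fibroblasts of the 22 Hox genes that were tested, in CPM + 0.1 on a log axis, grouped by cluster A to D, with 1 point for each library. In cluster C the distal points of Hoxc5, Hoxc6, Hoxc8 and Hoxc9 lie above the proximal ones, Hoxc8 at 117 and 119 against 25.1 and 12.3 CPM, and in cluster A the points of Hoxa2 to Hoxa5 lie the other way; none of these genes passed the threshold.

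In the 27 pathway lists, which overlap, no gene passed between the regions by edgeR or limma-voom and 82 of 434 entries had an unadjusted p under 0.05, whereas DESeq2 called 19 entries higher and 19 lower distally. Over all 16560 genes tested, 741 had an unadjusted p under 0.05 by edgeR, and DESeq2 called 64 higher and 77 lower distally. Both distal libraries were above both proximal ones for 12 of 26 genes of interferon response and antigen presentation and below for none, with a list median of 0.28 on the log2 scale beside 0.01 over all genes. Over all genes tested 12.6% were above and 17.5% below, and the counts that follow stand beside these shares. Isg15, a ubiquitin-like interferon-induced protein, stood at 20.2 and 14.4 against 30.6 and 25.1 CPM (adjusted p = 0.862). Chemokines and cytokines were above for 8 of 21 and below for 2. Cxcl1, which attracts neutrophils, stood at 38.2 and 27.2 against 95.3 and 77.3 CPM (adjusted p = 0.253), Ccl2, which attracts monocytes, at 19.4 and 12.9 against 58.4 and 33.0 CPM (adjusted p = 0.525) and Il33 at 193 and 222 against 261 and 299 CPM (adjusted p = 0.872). Collagens were above for 8 of 22 and below for 1. Col12a1 stood at 102 and 92.2 against 188 and 262 CPM (adjusted p = 0.195), and the matrix protein Tnc, tenascin C, stood at 437 and 432 against 794 and 1076 CPM (adjusted p = 0.303). Immediate early and heat shock genes were above for 11 of 27 and below for 3, and prostaglandin genes above for 5 of 12 and below for none. None of these genes passed, and these counts are read only as a description.

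In other lists more genes were below than above in the distal libraries, beside 17.5% below and 12.6% above over all genes tested, again with no gene past the threshold, as in the lists of retinoid genes, growth factors, R-spondins and WNT ligands. Of 13 retinoid genes 5 were below and 0 above. Lrat, which esterifies retinol, stood at 273 and 371 against 92.1 and 183 CPM (adjusted p = 0.729), the retinoic acid enzyme Aldh1a2 averaged 251 against 155 CPM (adjusted p = 0.425), and its relative Aldh1a3 stood at 366 and 346 against 224 and 241 CPM (adjusted p = 0.694). Of 29 growth factors 9 were below and 4 above. The EGF receptor ligand Ereg stood at 213 and 231 against 159.6 and 152 CPM and, on the other side, Fgf10 at 57.2 and 71.6 against 103 and 128 CPM (adjusted p = 0.303). Of 3 R-spondins 2 were below, Rspo3 with adjusted p = 0.292, and of 8 WNT ligands 3 were below and 0 above. Single genes of further lists were Hhip, Bmpr1b and Chrm3. The hedgehog inhibitor Hhip, 1 of 2 hedgehog genes below and 0 above of 10, stood at 82.1 and 94.6 against 20.6 and 34.6 CPM (adjusted p = 0.171), the BMP receptor Bmpr1b, in a list with 1 of 10 genes below and 1 above, at 72.5 and 113 against 14.5 and 32.6 CPM (adjusted p = 0.385) and the muscarinic receptor Chrm3, in a list with 4 of 16 genes below and 0 above, at 362 and 391 against 171 and 252 CPM (adjusted p = 0.626). Among transcription factors, 5 of 33 were above and 7 below, close to the shares over all genes. Osr1 stood at 31.4 and 41.0 against 15.2 and 15.5 CPM (adjusted p = 0.141) and Pitx1 at 13.1 and 15.1 against 31.6 and 25.4 CPM (adjusted p = 0.292). Of the cell type markers, 5 of 6 proliferation genes were above in both distal libraries and 0 below, at summed levels of 2.85 and 3.81 against 6.17 and 9.14 CPM. Their list median was 1.29, and 4 had an unadjusted p under 0.05 by edgeR, beside 741 of all 16560 genes tested. Of 6 smooth muscle genes 2 (Acta2 and Tagln) were above and 0 below. Fabp1, Fabp2 and Lyz1, 3 of 7 epithelial markers, were below, Fabp1 at 3.36 and 3.47 against 0.432 and 0.701 CPM, and so were Cd79a and Jchain, 2 of 5 immune markers. The part of these markers in the values was not tested.

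Some genes changed along the intestine by a different amount in Adamdec1 fibroblasts than in Ackr4 cells of the same libraries. The interaction of class and region, with the library as a block, was past an adjusted p of 0.05 for 99 of 17465 genes (0.567%, edgeR quasi-likelihood test), and of these 39 changed more toward distal and 60 more toward proximal in Adamdec1 fibroblasts. This balance rested on the libraries, since it was 185 toward distal and 120 toward proximal without proximal replicate 1 and 112 and 98 without distal replicate 2. Bmpr1b, a type I BMP receptor, stood at 72.5 and 113 against 14.5 and 32.6 CPM (proximal against distal) in Adamdec1 fibroblasts and at 50.2 and 65.9 against 41.4 and 65.1 CPM in Ackr4 cells, a difference between the log2 changes of -1.86 (SE 0.147, adjusted p = 0.00205). Slit2, a guidance ligand of ROBO receptors, stood at 123 and 167 against 39.3 and 71.7 CPM and 421 and 584 against 347 and 608 CPM, a difference of -1.29 (SE 0.0545, adjusted p = 0.000150). Fgf14 was lower distally in both classes, at 29.6 and 44.1 against 2.18 and 3.31 CPM and 99.5 and 131 against 27.9 and 36.1 CPM, with a difference of -1.87 (SE 0.103, adjusted p = 0.000636). In the other direction, Cxcl13, which attracts B cells, stood at 54.8 and 37.5 against 35.0 and 17.1 CPM in Adamdec1 fibroblasts and 184 and 175 against 31.3 and 14.4 CPM in Ackr4 cells, a difference of 2.21 (SE 0.141, adjusted p = 0.000899). Cntn4 stood at 0.377 and 0.123 against 9.72 and 10.9 CPM and 2.87 and 0.881 against 20.0 and 20.2 CPM, a difference of 1.95 (SE 0.271, adjusted p = 0.0255). The direction for Cntn4 rests on proximal levels near 0. With 5 CPM added to the mean levels, it rose by 1.54 on the log2 scale in Adamdec1 fibroblasts and by 1.87 in Ackr4 cells. Its call was lost without proximal replicate 1 (difference 1.88) and by limma-voom (difference 1.87, adjusted p = 0.0938). It was also lost with at least 4 of the 6 genes required (difference 2.02, adjusted p = 0.0676) and with thinned cells (difference 1.83, adjusted p = 0.443). Adamdec1 fibroblasts differed in their make-up between the libraries. Bmpr1b was among the leading genes of a group of them, group 1 of the clustering, which held 36.5% and 72.5% of the cells in the proximal and 3.09% and 64.5% in the distal libraries. Within group 1 Bmpr1b stood at 102 and 123 against 41.3 and 33.2 CPM (proximal against distal). The part of this make-up in the other differences was not tested. Without the library block no gene was called, with 217 at an unadjusted p under 0.05, and with a library left out 305 (proximal replicate 1), 142 (proximal replicate 2), 85 (distal replicate 1) or 210 (distal replicate 2) were called.

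Of the 60 genes that changed more toward proximal in Adamdec1 fibroblasts, 52 were at a higher level in these cells than in Ackr4 cells, and Ackr4 cells were higher distally in 48. Adamdec1 fibroblasts were themselves higher distally in 28 of the 60, so the direction is relative to the change in Ackr4 cells. Of the 39 that changed more toward distal, 2 were at a higher level in Adamdec1 fibroblasts, and Adamdec1 fibroblasts were higher distally in 33. The genes of the rule Adamdec1, Vwc2, Apcdd1 and Kcnk2 were among the 60 and are not read, since the rule used them. Adamdec1 stood at 1193 and 1289 against 2869 and 3379 CPM in Ackr4 cells, beside 1792 and 2454 against 3599 and 3709 CPM in free RNA, so both were higher distally. After 10% of each sum had been subtracted along the profile of free RNA, 43 genes were called. Beyond refits with this fixed 10% subtracted, the part of free RNA in single genes was not measured. Listed genes among the 60, beside those of the rule, were Bmp5, Bmp6, Bmpr1b, Frmd5, Fgf10, Vegfd, Pdgfc, Ereg, Tnc, Mfap4, Igfbp5, Col6a5, Calcrl, Hoxc8 and Osr1, with differences from -1.86 for Bmpr1b to -0.35 for Ereg. Listed genes among the 39 were Cxcl13, Abcc9, Ntrk3, Igfbp6, Col4a4, Col14a1, Hpgd, Wnt5a and Klf4, with differences from 2.21 for Cxcl13 to 0.41 for Klf4.

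Against Agt cells the same test called 3 of 16730 genes (0.0179%), with 864 at an unadjusted p under 0.05. Ryr2, an intracellular calcium release channel, stood at 13.96 and 15.0 against 3.63 and 10.5 CPM in Adamdec1 fibroblasts and 10.5 and 10.4 against 11.02 and 31.9 CPM in Agt cells, a difference of -2.07 (SE 0.146, adjusted p = 0.0350). Bmpr1b stood at 24.9 and 35.9 against 14.8 and 42.2 CPM in Agt cells, a difference of -1.86 (SE 0.146, adjusted p = 0.0350). Cxcl5, a neutrophil chemokine, stood at 8.65 and 8.91 against 39.7 and 27.9 CPM and 44.2 and 41.4 against 63.9 and 50.1 CPM, a difference of 1.52 (SE 0.124, adjusted p = 0.0350). These calls rested on the libraries used, since 0 genes were called without distal replicate 2 (1001 at an unadjusted p under 0.05), 11 without distal replicate 1, 40 without proximal replicate 2 and 136 without proximal replicate 1.

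Within the 17505 Adamdec1 fibroblasts, clustering on 2000 variable genes that left out the gate genes gave 11 groups, which are described by their leading genes and were not tested. Groups 1 and 2 held 36.7% and 33.4% of the cells, and their shares differed between the libraries. Group 1 made up 72.5% and 64.5% of the cells of proximal and distal replicate 2, compared with 36.5% and 3.09% in proximal and distal replicate 1. Group 2 made up 33.6% and 65.9% in proximal and distal replicate 1, compared with 2.97% and 3.67% in replicate 2. Within a library the 3 hashtags were close to each other, with group 1 at 35.2, 36.0 and 38.4% in proximal replicate 1, 75.2, 74.6 and 68.8% in proximal replicate 2, 3.07, 2.32 and 4.36% in distal replicate 1 and 66.1, 65.2 and 61.9% in distal replicate 2. Group 1 was led by Bmpr1b (80.1 against 31.7 CPM, group against the other Adamdec1 fibroblasts), Rspo2 (110.3 against 55.8 CPM), Chrm3 (382 against 204 CPM) and the clock genes Npas2 (123 against 64.9 CPM) and Arntl (120.1 against 66.5 CPM). Group 2 was led by Ces1d, a carboxylesterase (394 against 196 CPM), Adh1, an alcohol dehydrogenase (113 against 57.3 CPM), together with Zbtb16 (1173 against 609.7 CPM), Fkbp5 (249 against 132 CPM) and Tsc22d3 (300.4 against 168 CPM), the last 3 of which are known to be induced by glucocorticoids. These levels pool cells over the libraries, which differ in their shares of groups 1 and 2. The part of the difference between replicates in the leading genes was not tested.

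Of 13 clock genes tested, both replicate 2 libraries were above both replicate 1 libraries for 4 and below for 8, beside 29.0% above and 14.8% below over all genes tested, a count made after the values were seen. Arntl and Npas2, which encode activators of the circadian clock, stood at 61.2, 118, 51.9, 129 CPM and 63.5, 129, 47.4, 125 CPM in proximal replicates 1 and 2 and distal replicates 1 and 2. Dbp, Per1, Per3 and Nr1d1, whose cycles run roughly opposite to that of Arntl, stood at 24.2, 6.73, 31.8, 6.31 CPM, 68.2, 29.5, 65.1, 28.0 CPM, 25.8, 9.80, 24.2, 8.41 CPM and 89.5, 34.6, 93.4, 37.4 CPM in the same order. Replicate 2 was thus above replicate 1 in both regions for Arntl and Npas2 and below it for the other 4 genes, and none of the 13 had regions that did not overlap. The replicate number also sets the hashtag set, and the 2 cannot be told apart.

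**Figure D5:**
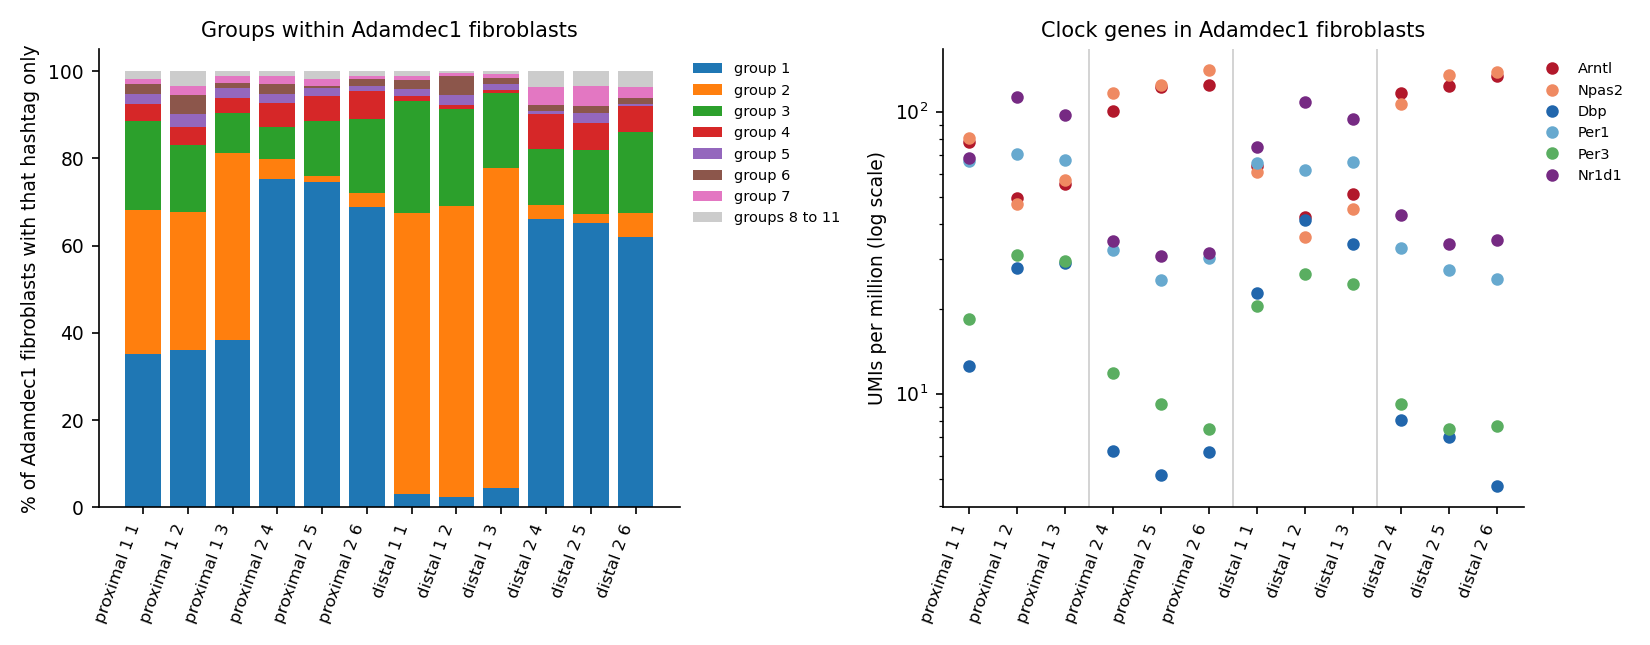
Left, share of Adamdec1 fibroblasts in each of the groups, in percent, stacked for the cells of each hashtag of each small intestinal library. Right, levels of Arntl, Npas2, Dbp, Per1, Per3 and Nr1d1 in CPM on a log axis for the same hashtags. Group 1 fills most of replicate 2 in both regions and group 2 most of distal replicate 1, and Dbp lies higher in replicate 1 where Arntl lies lower.

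The other groups were smaller. Group 3 (17.2% of cells, 11.8 to 22.1% of a library) was led by immediate early and heat shock genes, with Fos at 2289 against 295 CPM, Fosb at 661 against 70.5 CPM, Hspa1a at 1071 against 152 CPM and the chemokine Cxcl1 at 236 against 29.5 CPM. Group 6 (2.02%) was led by chemokines and interferon-induced genes, with Cxcl10 at 1894 against 41.3 CPM, Cxcl9 at 1308 against 35.8 CPM, Ccl2 at 886 against 16.3 CPM, Ifit3 at 405 against 19.1 CPM and Saa3, an acute phase protein, at 349.7 against 18.7 CPM. Group 7 (1.69%, and 3.43% of distal replicate 2) was led by contractile genes, with Myh11 at 1028 against 18.8 CPM, Acta2 at 2489 against 109.5 CPM, Tagln at 2426 against 109.9 CPM and Myocd at 424 against 34.6 CPM. It also held Hhip at 493 against 42.8 CPM. In groups 6 and 7 Scrublet marked 0.283% and 2.03% of cells as doublets.

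Groups 4 and 5 carried the genes of the neighboring classes. Group 4 (3.999%) was led by Mmp10 at 1378 against 25.04 CPM, Itga8 at 241 against 4.24 CPM, Cxcl14 at 381 against 11.98 CPM and Il34 at 216 against 16.3 CPM, which also led Agt cells. Group 5 (2.67%) was led by Alk at 204 against 3.99 CPM, Cd81 at 231 against 9.75 CPM and Ogn at 652 against 56.0 CPM, which also led Ackr4 cells. Its Adamdec1 level lay between 1188 and 1994 CPM in the 4 libraries, compared with 1193, 1289, 2869 and 3379 CPM in Ackr4 cells. Doublets were marked in 21.7% of group 4 and 24.2% of group 5. Group 8 (1.15%, led by the endothelial genes Flt1, Fabp4 and Pecam1) held 76.2% doublets. Group 9 (0.874%, led by the Paneth cell genes Defa24 and Lyz1) lay mostly in distal replicate 2 with 100 of 153 cells. Groups 10 and 11 held 29 and 24 cells, and group 11 was led by immunoglobulin genes. These groups were part of all sums above, and with all marked doublets removed 8 genes were called between the regions.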

How the data were processed

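The samples were 6 droplet libraries of sorted tdTomato+ lamina propria cells, grouped as the labels give them. Reads had been aligned to mm39 with the tdTomato sequence added, by Cell Ranger 8.1.0 per the methods and the submitters' processing notes. The authors deposited raw counts, UMIs of every barcode over 33697 genes and of the hashtags, before the doublet removal, ambient RNA correction and filters that the methods describe, which were not part of the values used here. Without these steps free RNA and doublets remain in the sums.

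Cell filters were those of the methods, as given in the opening. The Adamdec1 fibroblasts, the gene lists and the tests were chosen with earlier results of these data known. Scrublet predicted doublets per library at 0.8% per 1000 cells, and a hashtag was called above 2.5 robust SDs. UMIs were summed per library and class. Regions and the interaction of class and region were tested by edgeR's quasi-likelihood test (filterByExpr, minimum count 10, TMM, Benjamini-Hochberg adjustment at 0.05), the interaction with library as a block, and the test was checked on simulated counts, where it missed part of the 2-fold changes and made more false calls than its threshold allows. Classes were set side by side as log2 ratios of CPM + 5 without a test, a gene counting when the ratio was at least 2-fold in all 4 libraries. In these comparisons counts over all genes include the genes of the gates, and counts within gene lists leave them out. Shares were compared by exact permutation of libraries, and binomial intervals (95%, exact) cover counting error only. Groups came from Leiden clustering (2000 variable genes, 20 principal components, resolution 0.3). Genes named were up to 12 per direction past the threshold between regions, 15 per direction against each class, 5 per direction in the interaction, the genes of the rule, those the study names, and listed genes at 100 CPM or more, of which only some are printed. Genes with an adjusted p from 0.05 to 0.1 and other listed genes were added after their values were seen. Overlapping or near-identical genes may share reads.

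The alternatives were limma-voom, DESeq2, RLE size factors, no filter, other pseudocounts, stricter and looser gates, thinned cells, doublets removed, 10% free RNA subtracted, the block added or removed, and each library left out. Tools were Python 3.11.15 with scanpy 1.11.5, pandas 2.3.3, numpy 2.4.6, scipy 1.17.1 and matplotlib 3.10.9, and edgeR 4.0.16, DESeq2 1.42.0 and limma 3.58.1 in R 4.3.3. Coordinates came from the GENCODE annotation of GRCm39. Cells were not split by mouse. Other assays of the study were not used here. Results for some genes are not reported here.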

Additional observations from a re-analysis of the deposited data

Results flagged for a closer look

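Between Adamdec1 fibroblasts and Ackr4 cells of the same libraries, the difference between the log2 changes from proximal to distal passed the interaction test (edgeR, adjusted p under 0.05) for 99 genes, and the 5 with the widest differences in each direction are given. They were -2.69 for Trpc6, a cation channel, -1.87 for Fgf14, -1.86 for Bmpr1b, -1.29 for Slit2 and -1.27 for Rorb, which changed more toward proximal in Adamdec1 fibroblasts. They were 2.21 for Cxcl13, 1.95 for Cntn4, 1.79 for Gm30835, 1.63 for Gm56599 and 1.53 for Tafa1, which changed more toward distal. For Cntn4 this direction rests on proximal levels near 0. Mean levels in Adamdec1 fibroblasts (proximal against distal) were low for Rorb at 2.94 against 2.25 CPM and Tafa1 at 1.25 against 7.04 CPM. Gm30835 stood at 0.863 against 2.37 CPM and Gm56599 at 3.23 against 5.36 CPM. Trpc6 stood at 2.81 and 0.952 against 0.564 and 3.18 CPM (proximal against distal) in Adamdec1 fibroblasts, where the libraries of a region differed more than the regions, and lost its call without proximal replicate 1 (adjusted p = 0.122) and with doublets removed (adjusted p = 0.332). It was also lost with at least 4 of the 6 genes required and with thinned cells. The difference of Trpc6 was -2.07 with doublets removed, -2.17 with at least 4 of the 6 genes required and -1.65 with thinned cells. In Ackr4 cells Trpc6 stood at 0.381 and 0.248 against 0.616 and 3.55 CPM. It was also a leading gene of group 7, at 35.2 against 1.09 CPM in the other Adamdec1 fibroblasts. Gm30835 lost its call by limma-voom, with RLE size factors, with doublets removed, with thinned cells and after subtraction of free RNA (adjusted p from 0.0549 to 0.335), and also without proximal replicate 2 and without distal replicate 1. Its difference was 1.69 with doublets removed, 1.44 with thinned cells, 1.93 after subtraction of free RNA and 1.28 without proximal replicate 2. Tafa1 lost its call with thinned cells (difference 1.67, adjusted p = 0.257) and without distal replicate 1 (difference 1.49), and Rorb with thinned cells (difference -1.18, adjusted p = 0.169). Cntn4 lost it in the 4 settings given with its values, and all 10 lost it without the library block.

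Against Agt cells the difference passed the same test for Ryr2 (-2.07), Bmpr1b (-1.86) and Cxcl5 (1.52). All 3 lost their call after subtraction of free RNA (adjusted p = 0.0573 for each), without distal replicate 2 and without the library block. Cxcl5 also lost it with doublets removed (difference 1.498, adjusted p = 0.0677). After subtraction of free RNA the differences were -2.63 for Ryr2, -1.98 for Bmpr1b and 1.62 for Cxcl5. In the same order they were -2.01, -1.56 and 1.66 without distal replicate 2 and -2.14, -1.93 and 1.56 without the library block.

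The gate also took 4.68% of kept cells in the library of the cecum and 6.23% in that of the large intestine, which no comparison used. With at least 4 of the 6 genes required, these shares were 0.645% and 1.05%.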

How the results depend on the processing

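With 2 libraries for each region, counts of called genes moved with the setting. Between the regions, where 1 gene was called, the count was 0 by limma-voom (721 at an unadjusted p under 0.05), 141 by DESeq2 (64 higher and 77 lower distally), 154 without the filter on low counts (80 and 74), 3 with at least 4 of the 6 genes required, 8 with doublets removed, 8 with cells thinned to 2500 UMIs, 5 after subtraction of free RNA and 0 to 39 with each library left out. The replicate number as a block gave 365 calls (183 higher and 182 lower distally), Bche and the 12 genes named beside it among them. The labels do not say that a number marks a shared batch, the deviations of libraries with the same number correlated at 0.290 for replicate 1 of both regions, which replicate 2 mirrors with 2 libraries a region, and the number coincides with the hashtag set, so the pairing is a hint from the data and not from the design. In the interaction with Ackr4 cells, where 99 genes were called, the count was 484 without the filter, 43 after subtraction of free RNA, 0 without the library block (217 at an unadjusted p under 0.05) and 85 to 305 with each library left out. In the interaction with Agt cells, where 3 were called, it was 49 by DESeq2, 396 without the filter, 20 with thinned cells, 0 after subtraction of free RNA (841 at an unadjusted p under 0.05), 0 without the library block (245) and 0 to 136 with each library left out. Genes at least 2-fold above Ackr4 cells, 24 with 5 CPM added, were 47 with 1 CPM, 10 with 20 CPM, 42 after subtraction of free RNA and 24 to 39 with each library left out (39 without distal replicate 1). With 20 CPM added, 66 were below Ackr4 cells, 132 above Agt cells and 160 below Agt cells. The balance of the interaction with Ackr4 cells, 39 toward distal and 60 toward proximal, turned to 268 and 216 without the filter, 185 and 120 without proximal replicate 1 and 112 and 98 without distal replicate 2. No difference of a single named gene changed sign in an alternative run for it. For Cntn4 the order of the changes in the 2 classes did turn with 5 CPM added to the mean levels, which was not among those alternatives. The share of Adamdec1 fibroblasts was higher distally in all 12 alternatives, by 2.79 to 18.6 points, and by 9.18 points over cells without a Prox1 UMI, an alternative added after the data had been seen. Of 169 refits of single genes between the regions 92 kept their side of the threshold, 74 passed it where the original had not, and 3, all of Bche, lost it. Depth limits transcripts such as Tslp, whose UMIs numbered 8 to 83 in a library.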

Other observations

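The cells that the same gate took in the cecum (653) and the large intestine (732) came from 1 library each, so their levels carry no test. Posterior Hox genes that were near 0 in the small intestinal Adamdec1 fibroblasts were present there, with Hoxa9 at 59.3 and 38.0 CPM in the cecum and the large intestine, Hoxa10 at 65.7 and 93.3 CPM, Hoxc10 at 36.1 and 13.0 CPM, Hoxd9 at 47.6 and 22.7 CPM and Hoxd10 at 19.2 and 16.4 CPM. Hoxc8, at 118 CPM on average in the distal small intestine, stood at 9.60 and 2.24 CPM, and Bche, at 3.31 CPM there, stood at 4.91 and 5.75 CPM. Of the genes of the rule, Adamdec1 stood at 10534 and 8935 CPM and Edil3 at 473 and 755 CPM, whereas Dkk2 stood at 56.5 and 10.9 CPM and Vwc2 at 14.5 and 0.280 CPM.

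Clock genes were also read in the cells of the cecum and the large intestine, which are other tissues with 1 library each. Dbp stood at 7.68 and 7.99 CPM in the cecum and the large intestine, Per1 at 37.1 and 22.8 CPM, Per3 at 6.40 and 7.15 CPM and Nr1d1 at 30.5 and 39.5 CPM. Arntl stood at 86.0 and 106 CPM and Npas2 at 113 and 135 CPM.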
